A study of Mus musculus with 4 samples.

Results

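The genes described here are 10 members of the Galnt family, which encodes polypeptide N-acetylgalactosaminyltransferases, and they are Galnt1, Galnt2, Galnt3, Galnt4, Galnt7, Galnt9, Galnt10, Galnt11, Galnt12 and Galnt14. They were chosen by symbol from a table of 26301 genes with an identifier, and the choice was made with the counts of this same comparison between WT and REST-/- cells already in view. Their levels and changes are therefore a description, and nothing about them rests on the tests run over all genes. The table holds 19 genes of the family, so 9 further family genes stand beside the 10. All 10 passed the filter on low counts, as did 15444 genes in all.

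RNA was sequenced from mouse embryonic stem cells (ESCs) of 2 genotypes, WT (the line N6, 2 libraries) and REST -/- (the line N8, 2 libraries), described as biological replicates. The study used these cells to ask what the loss of the repressor REST does to the transcripts of its target genes. Each genotype is 1 cell line, so that a difference between the genotypes and a difference between the lines cannot be told apart. Both lines were kept with serum and leukemia inhibitory factor on a feeder layer of fibroblasts, which was depleted before RNA was taken.

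Mucin-type O-glycosylation begins in the Golgi when a Galnt enzyme transfers N-acetylgalactosamine from UDP-GalNAc to a serine or threonine of a passing protein. Some Galnt enzymes act on bare peptides, while others prefer peptides that already carry a sugar and fill in neighbouring positions. Other enzymes then extend this first sugar with galactose and cap the chain with sialic acid. REST is a zinc finger repressor of neuronal genes outside the nervous system, and it binds a DNA element called RE1.

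Galnt9 stood apart from the other family genes. Its transcript level was 3.22 ± 0.672 CPM in WT and 34.4 ± 5.83 CPM in REST-/- cells (SD, n = 2), 10.7-fold higher in the latter. CPM are read counts scaled to a library of 1000000 counts, with edgeR's TMM correction of library size. The other changes among the 10 genes lay between -0.83 and 0.83 on the log2 scale. Galnt3 had higher CPM in both REST-/- libraries than in either WT library, Galnt7 and Galnt11 had lower CPM in both, and in the remaining 6 genes the libraries of the genotypes overlapped.

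Libraries held 30953863 and 27061056 counts in WT cells and 25461270 and 22293966 in REST-/- cells, where 3 counts correspond to between 0.0969 and 0.135 CPM. Rest itself, as a check of the genotypes, had 7908 and 6233 counts in WT libraries against 4244 and 3890 in REST-/- libraries, a log2 fold change of -0.52 (SE 0.13). Which exons those reads came from is not visible in counts summed per gene. All 10 ESC markers examined, Pou5f1, Sox2 and Nanog among them, were detected in every library, and their summed level was 5083 and 4954 CPM in WT against 4252 and 4393 CPM in REST-/- libraries. Of these 10, 4 were lower in both REST-/- libraries, as were 15.4% of all tested genes, and the largest changes were those of Zfp42 at -1.36 (SE 0.18) and Fgf4 at -0.98 (SE 0.15) on the log2 scale. Markers of embryonic fibroblasts summed to 29.6 and 24.1 CPM in WT libraries and to 100.1 and 24.8 CPM in REST-/- replicates 1 and 2, with Lum at 0 in all. The 10 markers of primitive endoderm summed to 425 and 496 CPM in WT and to 671 and 644 CPM in REST-/- libraries, and 7 of them were higher in both REST-/- libraries, as were 16.5% of all tested genes. Trophectoderm markers summed to 190 and 488 CPM in WT against 293 and 632 CPM in REST-/- libraries, and neuronal markers to 369 and 470 CPM and 460 and 536 CPM. Of the 10 neuronal markers, 4 were higher in both REST-/- libraries and 0 lower in both, where 16.5% and 15.4% of all tested genes were. At an unadjusted p under 0.05, which 6.71% of all tested genes reached in edgeR's quasi-likelihood fit, stood 4 of the 10 ESC markers, 3 of primitive endoderm, 2 of fibroblasts, 1 of trophectoderm and 3 neuronal ones. The neuronal ones were Snap25, Elavl3 and Nefl, with log2 fold changes of 3.98 (SE 0.38), 1.67 (SE 0.16) and 1.29 (SE 0.19). The part of these other cell types in the results was not tested, and in bulk RNA fewer cells that express a gene and less RNA per cell cannot be told apart.

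The sequences that bear on the question are the RE1-like stretches nearest the genes, since REST binds this element. The letters searched were AGCACC, any 2 bases, then GGACAGC, on both strands of the mm9 genome, with at most 1 mismatch over the 13 fixed positions and within 20 kb of an annotated start site. Only Galnt9 and Galnt4 among the 10 genes had such a match (2 of 10), while 12.8% of the 22380 protein-coding genes had one. Both matches, with 30 bases on each side and the matched 15 bases in capitals, read 5′ to 3′ on the plus strand as follows.

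Galnt9: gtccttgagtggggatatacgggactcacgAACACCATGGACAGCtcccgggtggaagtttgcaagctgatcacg

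Galnt4: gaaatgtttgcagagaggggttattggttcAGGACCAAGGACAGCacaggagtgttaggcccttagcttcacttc

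The Galnt9 match lies at chr5:110987550-110987564 in an intron of the gene, 14193 bp downstream of the first annotated start site. It differs from the searched letters by G2A, counted from 1 at the 5′ end of the searched letters, which are given first. The Galnt4 match lies at chr10:98557927-98557941, outside the gene and 12859 bp upstream of its start, and differs by C3G. No member had a match without mismatch within 20 kb, against 1.19% of protein-coding genes, and none had a match with 1 mismatch within 1 kb, against 1.63%. Letters that match are not evidence of binding, and a window without them says nothing of REST elsewhere. Among 13897 tested genes with a position in mm9, the 2040 with a match of up to 1 mismatch within 20 kb showed a median change of 0.05 on the log2 scale, 57.2% of them above 0, against a median of -0.006 for genes without one. The 204 with a match without mismatch had a median of 0.13, with 68.6% above 0, against -0.002 for genes without one.

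Galnt9 (chr5:110973364-111050401, plus strand) encodes a family member known mainly from the brain. Its counts were 85 and 99 in WT libraries against 783 and 854 in REST-/- libraries, or 2.75 and 3.70 against 30.3 and 38.6 CPM. Both REST-/- libraries lay far above both WT libraries. The log2 fold change was 3.42 (SE 0.26), the value at rank 59 from the top of the 15444 genes tested, and it stayed between 3.21 and 3.65 when any library was left out. Without REST-/- replicate 1, the library with the higher fibroblast markers, it was 3.59. The nearest tested genes on either side did not show a change of this size: the gene 2410025L10Rik had a log2 fold change of -0.08 (SE 0.15) and Noc4l, 27035 bp away, 0.23 (SE 0.13). These neighbours were chosen by position after the values of Galnt9 were known.

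**Figure D1:**
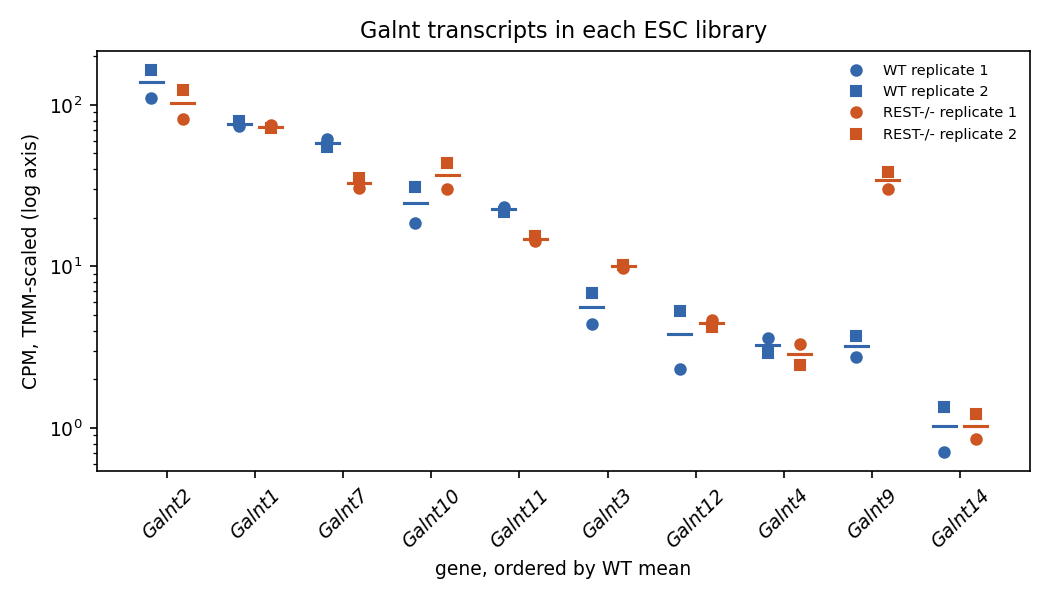
CPM of the 10 Galnt genes (log axis) in each library, with WT in blue, REST-/- in orange, circles for replicate 1, squares for replicate 2 and bars for the mean of 2 libraries. The genes are ordered by their WT mean, and Galnt9 moved from 3.22 CPM, near the low end of that order, to 34.4 CPM.

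The pattern of Galnt9 over the 4 libraries was most like that of Gdap1l1, Sez6, Cplx1, Diras1 and Pclo, by the Euclidean distance over log2(CPM + 0.5). Gdap1l1 was the nearest, at a distance of 0.508, with 105 and 126 counts in WT against 673 and 733 in REST-/- libraries. The distances of the other four were between 0.673 (Sez6) and 0.786 (Pclo). With 4 libraries in 2 groups, such a likeness says mainly that both level and change were alike. Snap25, a synaptic gene on the list of neuronal markers, was named after its values were seen: it had 13 and 18 counts in WT against 251 and 166 in REST-/- libraries, a log2 fold change of 3.98 (SE 0.38). Tubb3, a neuronal tubulin on the same list, had 156.9 and 183.1 CPM in WT against 144.3 and 198.5 CPM in REST-/- libraries, and these ranges overlap.

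Among the enzymes that start O-glycans on bare peptides, Galnt1 and Galnt2 are the broadly expressed ones and had the highest levels of the 10. Galnt1 (chr18:24363845-24445319, plus strand) had 73.8 and 78.9 CPM in WT against 75.0 and 71.6 CPM in REST-/- libraries. The genotypes overlapped, and the log2 fold change was -0.06 (SE 0.14), between -0.11 and -0.01 with any library left out. Galnt2 (chr8:126755291-126869624, plus strand) had 110.8 and 164.7 CPM in WT against 81.6 and 123.4 CPM in REST-/- libraries, a log2 fold change of -0.43 (SE 0.30). In each genotype the second library was the higher, and the spread within a genotype exceeded the difference between the genotypes. Under either replicate number the REST-/- library was the lower, though no label ties these numbers to a batch. The value was -0.11 without WT replicate 2, -0.15 without REST-/- replicate 1 and -0.76 without REST-/- replicate 2. In the annotation used, 90% of the exon bases of Galnt2 are shared with a gene model on the same strand, Gm20388, and 3.6% with an antisense transcript, 1810008B01Rik, so reads of these could not be separated with certainty.

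Galnt3 (chr2:65920823-65963051, minus strand) encodes the enzyme known for glycosylating the phosphate hormone FGF23. It had 4.43 and 6.83 CPM in WT against 9.79 and 10.2 CPM in REST-/- libraries. Both REST-/- libraries were higher than both WT libraries, the fold was 1.78 and the log2 fold change 0.83 (SE 0.32). Leaving out WT replicate 1 gave 0.54 and leaving out WT replicate 2 gave 1.18, so the size of the change depended on the WT library used.

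Galnt11 (chr5:24728700-24771736, plus strand) encodes an enzyme that modifies receptors of the LDL receptor family and Notch1. It had 23.3 and 21.7 CPM in WT against 14.3 and 15.3 CPM in REST-/- libraries. All REST-/- values lay below all WT values with little spread within a genotype, the fold was 0.658 and the log2 fold change was -0.60 (SE 0.19), between -0.66 and -0.55 with any library left out. In the mm9 annotation 5.01% of its exon bases overlap those of E130116L18Rik on the opposite strand.

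Galnt12 and Galnt14 were low in both genotypes. Galnt12 (chr4:47104781-47135942, plus strand), expressed in the gut and linked to mucin glycosylation there, had 2.33 and 5.30 CPM in WT against 4.68 and 4.20 CPM in REST-/- libraries. Its log2 fold change of 0.22 (SE 0.48) became 0.93 when WT replicate 2 was left out and -0.26 when WT replicate 1 was, so its direction rested on a single WT library. Galnt14 (chr17:73842568-74059793, minus strand), named in the glycosylation of death receptors, had 22 and 36 counts in WT against 22 and 27 in REST-/- libraries, or 1.03 ± 0.448 and 1.04 ± 0.260 CPM (SD, n = 2). Its log2 fold change of 0.01 (SE 0.50) was -0.38 without WT replicate 1, -0.27 without REST-/- replicate 2 and 0.54 without WT replicate 2.

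The enzymes that prefer peptides already carrying a sugar are represented by Galnt4, Galnt7 and Galnt10. Galnt7 (chr8:60002625-60131829, minus strand) was the most abundant of them in WT cells and had 61.4 and 55.1 CPM in WT against 30.4 and 35.1 CPM in REST-/- libraries. Its groups did not overlap, the level in REST-/- cells was 0.563 of that in WT cells, and the log2 fold change was -0.83 (SE 0.17), between -0.94 and -0.73 with any library left out. Galnt10 (chr11:57458944-57601016, plus strand) had 18.4 and 31.2 CPM in WT against 30.1 and 43.7 CPM in REST-/- libraries, with REST-/- replicate 1 just under WT replicate 2. Under either replicate number the REST-/- library was the higher. The log2 fold change of Galnt10, 0.57 (SE 0.34), became 0.24 when WT replicate 1 was left out and 1.00 when WT replicate 2 was. Galnt4 (chr10:98570793-98575881, plus strand) had 112 and 78 counts in WT against 86 and 54 in REST-/- libraries, or 3.27 ± 0.499 and 2.88 ± 0.630 CPM (SD, n = 2). The groups overlapped, and the log2 fold change of -0.18 (SE 0.34) was 0.02 without REST-/- replicate 2, -0.02 without WT replicate 1, -0.32 without WT replicate 2 and -0.42 without REST-/- replicate 1. Galnt4 lies inside the locus of Wdr51b, also called Poc1b, with which it shares no exon bases, and Wdr51b had a log2 fold change of -0.22 (SE 0.37).

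**Figure D2:**
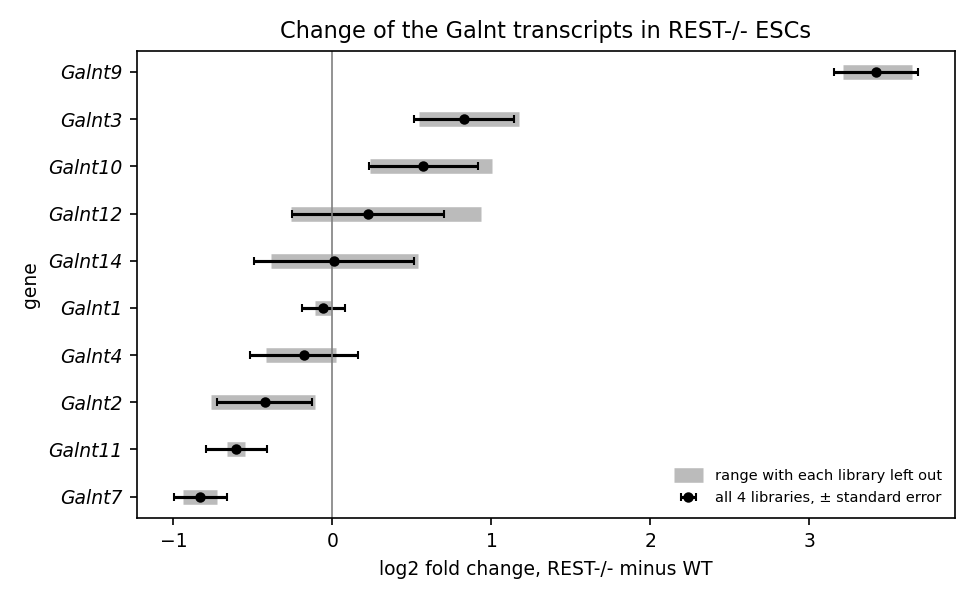
Log2 fold change of each Galnt gene in REST-/- against WT ESCs, with points and bars for the estimate from 4 libraries and its standard error, and grey bands for the range with each library left out in turn. Galnt9 stood at 3.42 and the other genes between -0.83 and 0.83, and the grey bands of Galnt4, Galnt12 and Galnt14 cross 0.

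Galnt2 and Galnt7, both lower in mean level in REST-/- cells, lie on chromosome 8. The 785 tested genes of that chromosome showed a median change of -0.13 on the log2 scale, against -0.005 over all tested genes, and 5.48% of them lay below the value of Galnt7, which stood at rank 514 from the bottom of the 15444 tested genes. Of the tested genes nearest Galnt7, Hmgb2 and Sap30 on one side had log2 fold changes of -0.66 (SE 0.23) and 0.11 (SE 0.14). They lie 7828 and 35967 bp away. Aadat and Mfap3l on the other side had 0.03 (SE 0.73) and 0.89 (SE 0.47), but lie 2853091 and 2979794 bp away. Of those of Galnt2, AK122209 and Taf5l on one side had -0.11 (SE 0.13) and -0.05 (SE 0.19), and Pgbd5 and Cog2 on the other -0.73 (SE 0.33) and -0.40 (SE 0.13). The closest tested gene to Galnt7, Hmgb2, was thus below 0 and those further off were above it, while those nearest Galnt2 were all below 0. These neighbours, too, were picked by position after the values were seen. The part of the chromosome in the values of Galnt2 and Galnt7 was not tested.

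Over the 10 genes, 5 log2 fold changes lay above 0 and 5 below, and their median was -0.02. In edgeR's quasi-likelihood test with Benjamini-Hochberg adjustment over all genes, 0 of the 10 were called at an adjusted p under 0.05, where 0.0583% of the tested genes (9 of 15444) were. At an unadjusted p under 0.05 there were 3 (Galnt7, Galnt9 and Galnt11), against 6.71% of the tested genes. The edgeR exact test with tag-wise dispersion called 1, Galnt9, against 1.77% of the tested genes, and DESeq2 also called Galnt9 alone, against 1.53% of the genes it gave an adjusted p. Both REST-/- libraries exceeded both WT libraries in 2 members, as in 16.5% of tested genes, and both were lower in 2 members, as in 15.4%. Nothing is read from these counts, since the genes were chosen with this comparison known. With 2 libraries against 2, an exact permutation test of a single gene cannot give a two-sided p below 0.333.

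Levels of different genes were compared as CPM per kilobase of exon (union of annotated exons). In WT cells the order of the 10 genes by this level was Galnt2 at 32.2 ± 8.90, Galnt1 at 13.8 ± 0.647, Galnt7 at 11.1 ± 0.853, Galnt11 at 7.53 ± 0.376, Galnt10 at 4.16 ± 1.51, Galnt12 at 1.67 ± 0.920, Galnt3 at 1.29 ± 0.389, Galnt9 at 1.07 ± 0.224, Galnt4 at 0.642 and Galnt14 at 0.192 CPM per kilobase (SD, n = 2). Among neighbours in this order, the libraries of Galnt12 and Galnt3 overlapped, as did those of Galnt3 and Galnt9, and the remaining neighbours did not overlap. With the longest transcript as length the level of Galnt14 in WT cells was 0.344 CPM per kilobase. In REST-/- cells Galnt9, at 11.5 ± 1.95 CPM per kilobase, ranked below Galnt1 at 13.3 ± 0.426 and above Galnt7 at 6.24 ± 0.633. Its libraries overlapped neither neighbour's. There Galnt7 and Galnt10 overlapped, as did Galnt10 and Galnt11. Among all 19 family genes the rank of Galnt9 went from 9 to 4.

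Galnt9 made up 0.812% and 1.07% of the summed family level per kilobase in WT libraries against 10.8% and 12.5% in REST-/- libraries. The share of Galnt7 was 10.4% and 9.10% in WT against 6.18% and 6.48% in REST-/- libraries, and that of Galnt11 was 6.90% and 6.30% against 5.09% and 4.97%. The shares of Galnt1 (11.9% and 12.4% against 14.5% and 12.6%), Galnt3 (0.896% and 1.36% against 2.39% and 2.26%) and Galnt10 (2.74% and 4.54% against 5.39% and 7.10%) were higher in both REST-/- libraries. Those of Galnt4, Galnt12 and Galnt14 overlapped between the genotypes, as did that of Galnt2, at 22.9% and 33.4% in WT against 20.3% and 27.9% in REST-/- libraries. The summed family level was 114.1 ± 1.69 CPM per kilobase in WT against 98.4 ± 6.72 in REST-/- cells, and without Galnt9 it was 113.0 ± 1.47 and 87.0 ± 4.77 (SD, n = 2). A share is tied to the others, so a rise of one gene lowers the shares of the rest.

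**Figure D3:**
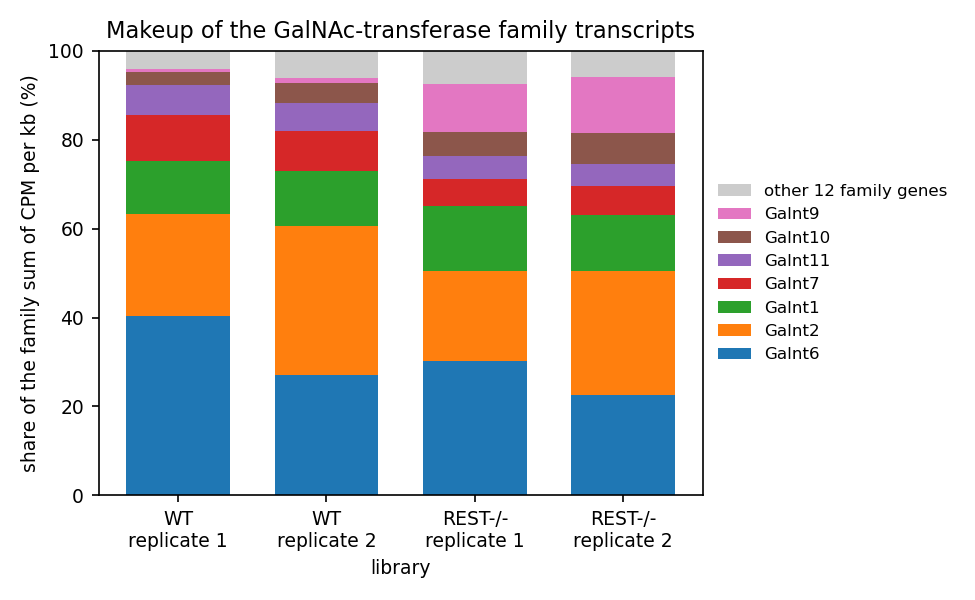
Shares in the summed CPM per kilobase of the 19 family genes, one bar per library. Galnt6, Galnt2, Galnt1, Galnt7, Galnt11, Galnt10 and Galnt9 have a band each, and the remaining genes share a grey one. The pink band of Galnt9 widened from 0.812% and 1.07% in WT libraries to 10.8% and 12.5% in REST-/- libraries.

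Of the 9 further family genes, Galnt6 was the most abundant. Its mean level per kilobase was above that of Galnt2 in both genotypes, but Galnt2 was the higher in replicate 2 of each, so their order did not hold beyond the spread. It had 176.2 and 121.0 CPM in WT against 109.5 and 89.9 CPM in REST-/- libraries, which did not overlap, and a log2 fold change of -0.58 (SE 0.24, adjusted p = 0.807 by edgeR's quasi-likelihood test). Galntl1 (Galnt16), Wbscr17 (Galnt17) and Galntl4 (Galnt18) passed the filter at low levels, with log2 fold changes of -0.89 (SE 0.70), 0.41 (SE 0.43) and -0.12 (SE 0.65), and their libraries overlapped. Galnt13 had 8 and 10 counts in WT against 10 and 7 in REST-/- libraries, Galntl2 (Galnt15) had 0 and 3 against 0 and 1, and 4930431L04Rik (Galntl6) had 1 and 0 against 2 and 1. Galnt5 and Galntl5 are listed at 0 in all 4 libraries. Widely used genes such as Tceb1 and Ube2w, named after their values were seen, are listed at 0 in all 4 as well, so an exact 0 in this table may also mean that a gene was not counted.

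The genes around the Galnt enzymes in the pathway are given beside the shares over all tested genes. Of 61 genes on 6 lists that were present in the table, the 9 further family genes included, 42 were tested. At an adjusted p under 0.05, 0 were called by edgeR's quasi-likelihood test, by its exact tests or by DESeq2. Over all genes, the quasi-likelihood test called 0.0583%, the exact test with tag-wise dispersion 1.77% and DESeq2 1.53%. A count of 0 among 42 is close to these shares and is not a result about the pathway. At an unadjusted p under 0.05 in the quasi-likelihood test there were 2, Pdpn among them, where 6.71% of all tested genes were. Log2 fold changes lay above 0 in 19 and below 0 in 23, the median was -0.03, and none exceeded 1 in size. Both REST-/- libraries exceeded both WT libraries in 7 of the 42 and were lower in 5, where 16.5% and 15.4% of all tested genes did so.

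Of the 5 tested genes that extend the first sugar, 4 lay above 0 and the median was 0.05. C1galt1, which adds galactose to the sugar laid down by the Galnt enzymes, had 13.8 and 12.8 CPM in WT against 13.9 and 13.6 CPM in REST-/- libraries and was named after its values were seen, for its place in the pathway. Its chaperone C1galt1c1 had 14.1 and 6.24 CPM in WT against 9.52 and 3.88 CPM in REST-/- libraries, a log2 fold change of -0.60 (SE 0.61). C1galt1c1 is X-linked, and the 550 tested genes of the X chromosome showed a median change of -0.41 on the log2 scale. The branching enzymes Gcnt3 and Gcnt1 had log2 fold changes of 0.71 (SE 0.35) and 0.48 (SE 0.28).

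All 6 tested genes for sialic acid capping lay below 0, with a median of -0.24 and 0 calls. St6galnac3 had the largest change in size, -0.87 (SE 0.45), with 3.81 and 6.01 CPM in WT against 1.90 and 3.48 CPM in REST-/- libraries. St6galnac2 stood at -0.33 (SE 0.28) and St6galnac6 at -0.28 (SE 0.37). Of the 11 genes that supply the sugar donors, 7 lay above 0 and the median was 0.04. Gnpnat1 and Gne, which act in the synthesis of UDP-GlcNAc and of sialic acid, stood at -0.31 (SE 0.42) and 0.26 (SE 0.30).

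Of the 7 tested mucins and sialomucins, the protein carriers of such glycans, 3 lay above 0 and 4 below. Pdpn, a mucin-like membrane protein, had 16.2 and 31.5 CPM in WT against 43.0 and 49.8 CPM in REST-/- libraries, a log2 fold change of 0.96 (SE 0.36, adjusted p = 0.739 by edgeR's quasi-likelihood test). Spn, the leukocyte sialomucin CD43, had 23.1 and 14.4 CPM in WT against 13.2 and 8.35 CPM in REST-/- libraries, a log2 fold change of -0.80 (SE 0.37). Cd164 and Podxl had means above 100 CPM in both genotypes, with log2 fold changes of -0.19 (SE 0.19) and 0.04 (SE 0.34). Podxl was below 100 CPM in replicate 1 of each genotype, at 84.2 CPM in WT and 90.5 CPM in REST-/- cells. Enzymes that start other kinds of O-glycan had a median of -0.04 over 9 tested genes. Ogt, which adds GlcNAc inside the cell and is X-linked, reached 316 ± 106 CPM in WT against 283 ± 74.8 CPM in REST-/- cells (SD, n = 2), with a log2 fold change of -0.16 (SE 0.31). Ktelc1 (Poglut1), Xylt1 and A130022J15Rik (Eogt) stood at 0.37 (SE 0.18), 0.69 (SE 0.32) and -0.30 (SE 0.21).

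**Figure D4:**
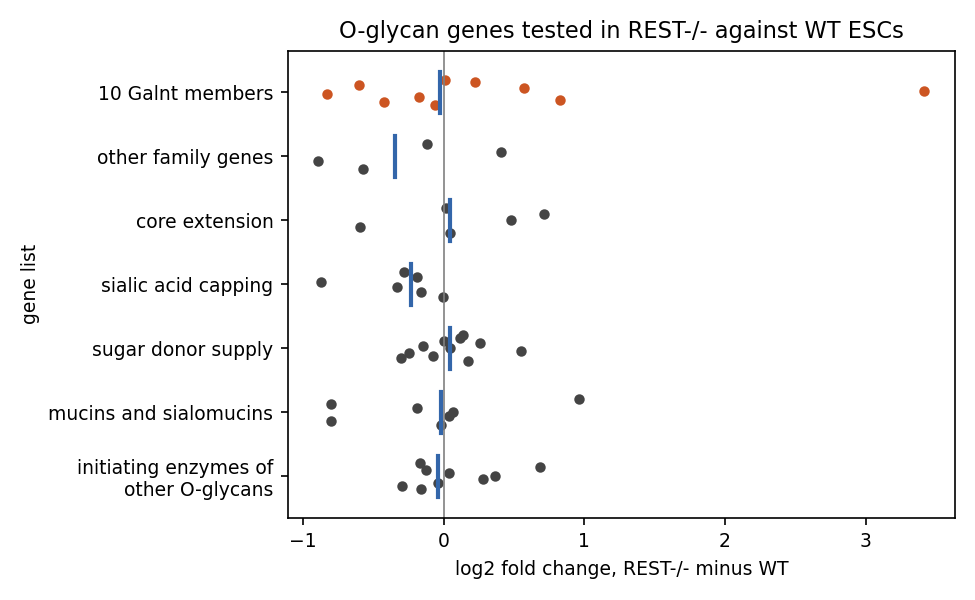
Log2 fold change in REST-/- against WT ESCs of the tested genes on the O-glycan lists, one point per gene, with the 10 Galnt members in orange and blue bars for the median of each list. The 42 listed genes outside the members lay between -0.89 and 0.96, and Galnt9 lay at 3.42.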

How the data were processed

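Per the labels, the authors extracted total RNA, made indexed Illumina TruSeq libraries, pooled the 4 ESC libraries at equal concentration and sequenced them. Subread and featureCounts are named in the submitters' processing notes with the mouse build mm9, and versions, annotation and strand setting are not given in the sources used here. The deposited table holds whole-number counts per gene for 2 WT and 2 REST-/- libraries. Its 368 rows without an identifier are empty and were left out.

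Counts were tested in edgeR 4.0.16 (R 4.3.3) with TMM, filterByExpr, the quasi-likelihood test and Benjamini-Hochberg adjustment at 0.05. CPM used TMM-scaled library sizes. The common biological coefficient of variation was 0.2745. On simulated data with 200 changed genes among 15444, all were recovered and 2.91% of calls were false. The simulated replicates varied less than these libraries did, and the changes were large and placed in well counted genes. This checked the fit and says nothing of its power on these data. Other normalisations, filters and tests, DESeq2 1.42.0 and leaving out each library were tried. Of the gene rows, 22790 matched 1 gene of the mm9 annotation, which gave positions and exon lengths, and the longest transcript was tried as another length. The floor of 3 counts per library considers counting error only.

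The members and gene lists were chosen with earlier results of these data known. All 10 members, all further family genes, Rest and exon-overlapping genes were named, with the 5 genes most like Galnt9. Of each other O-glycan list, called genes were to be named, and genes with a mean above 100 CPM. The 3 with the largest absolute log2 fold change at a mean of at least 1 CPM were to be named too. Markers of cell types were not named by this rule. Galnt20 and Muc3a matched no row. A gene of the sugar donor list is counted but not reported here by name.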

Additional observations from a re-analysis of the deposited data

How the results depend on the processing

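Over all genes, edgeR's quasi-likelihood test called 9 of 15444. It called 53 without a filter on low counts and 3 with at least 10 counts in every library. The edgeR exact tests called 274 with tag-wise and 343 with common dispersion, DESeq2 called 249, and leaving out each library gave 60 to 113 (113 without WT replicate 2), where the lone library is assumed to vary like the other genotype. Of the Galnt members, 0 were called, against 1 (Galnt9) without the filter, by either exact test, by DESeq2, and when any library was left out (1 to 1). Pathway genes called stayed at 0 in these settings. Labels tie no replicate number to a shared batch, so libraries were not paired, yet same-numbered libraries deviated together over genes (Pearson's r = 0.81), with only 2 pairs. With the replicate number as a block, 2621 genes, 6 members (Galnt2, Galnt3, Galnt7, Galnt9, Galnt10, Galnt11) and 8 pathway genes (among them C1galt1c1, Galnt6, Ktelc1, Pdpn, Pofut2, Spn, St6galnac3) were called. Galnt9 kept a log2 fold change of 3.21 to 3.65 throughout, and 3.42 under the block. Galnt4, Galnt12 and Galnt14 changed sign in 4 of 140 alternatives over the members, each time with a library left out. RE1-like matches were near 2 members within 20 kb, 0 within 1 kb, 6 within 100 kb (41.4% of protein-coding genes) and 0 without mismatch, and the left or right part of the letters alone lay within 20 kb of all 10 (99.9% and 99.7% of protein-coding genes). With the longest transcript as length, levels of Galnt1, Galnt7, Galnt11 and Galnt14 in WT cells moved by more than their SD. The causes of these differences were not tested. Galnt14 had the fewest counts of the members (22 to 36).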
